A study of Homo sapiens with 4 samples.

Results

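The cohesin loops of a B lymphoblastoid line treated with hydroxyurea were compared with those of its water control. Of the 30754 loops listed in the library labelled HU, in the library labelled H2O or in both, 13140 were listed in both at the same pair of 5 kb bins, and these shared loops are the ones compared. They are part of 41846 loops listed in any library of the series. The HU culture received 0.2 mM hydroxyurea for 18 h, and the H2O culture received water, the solvent of hydroxyurea. The DMSO culture, which received only the solvent dimethyl sulfoxide, served as a second untreated reference for 10148 of the shared loops, and the fourth library came from cells treated with 0.4 µM aphidicolin (APH) for 18 h. All cultures were taken as GM12878, an Epstein-Barr virus transformed B cell line, although the titles of the samples name a different lymphoblastoid line from the one in their source and cell line fields. Each group held 1 library, so every difference is one between libraries, without a replicate check.

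Cohesin is a ring of SMC1, SMC3, RAD21 and a STAG subunit that holds sister chromatids together and extrudes DNA into loops. Extrusion runs until the ring is released or meets a barrier, most often CTCF bound in an orientation that faces the ring, so that loop anchors tend to lie at CTCF sites, promoters and enhancers. HiChIP joins fragments that lie close together in fixed nuclei and then enriches, with an antibody to SMC1, the junctions at which cohesin was bound. Hydroxyurea inhibits ribonucleotide reductase, the enzyme that makes deoxynucleotides, and thereby slows replication forks. The question posed by the design is how slowed replication affects loops held by cohesin.

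The value of a loop was its deposited contact count, the number of read pairs that join its 2 bins. A ratio was scaled by the totals over the shared loops, 394705 counts in HU and 399675 in H2O, and is given as log2, with HU over H2O unless another order is stated. The interval beside a ratio is its 95% exact interval and covers counting error only. The interval beside a difference between log2 ratios is a 95% normal approximation and also covers counting error only. Single counts are printed as deposited, without scaling, and those of DMSO run lower because its list is smaller. A shared loop had a median of 24 counts in either library and a median span of 110 kb. The log2 ratios of single loops ran from -1.41 to 1.66, with a median of 0.02 and 90% of them between -0.66 and 0.68. The deposited lists held 17660 to 27395 loops and 449565 to 732695 counts per library, and total read depth was unknown. Shared loops held 71.7% of the counts listed in HU and 69.4% of those in H2O. Of 10 B cell marker genes, 7 had a listed loop in HU, 9 in H2O and 7 in DMSO. The corresponding numbers were 2, 4 and 2 for T cell markers, 5, 3 and 3 for myeloid markers, and 2, 2 and 2 for erythroid markers. CD79A, MS4A1, PAX5 and EBF1 carried loops in all 3 libraries, whereas CR2 did so in H2O only, and the part of these differences in the results was not tested.

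Anchors were also read for letters of the CTCF core motif where a promoter sequence was at hand. The letters searched were CCA, any 2 bases, AG, any 2 bases and GGC, on both strands, in the 250 bases upstream of the start of 15813 protein-coding genes (RefSeq, GRCh38.p14, the same build as hg38), and 374 of them, 2.37%, held it. Among promoters lying in an anchor bin of a shared loop, 77 of 1894 held it (4.07%, 95% exact interval 3.22% to 5.06%), against 297 of 13919 (2.13%, 1.90% to 2.39%) of the remaining promoters. Only part of the 1894 promoters at anchors entered the split by gene that follows. The letters stood in 1 of 52 such promoters of genes with higher contact in HU, in 3 of 54 with lower contact, and in 40 of 937 that were neither, by the rule for genes given further on. These 4 promoters are shown because they belong to genes that differed between the libraries, and the capitals mark the matching letters. A match describes the letters and does not show that CTCF was bound.
EHD2, chr19:47713172-47713421, plus strand, higher in HU: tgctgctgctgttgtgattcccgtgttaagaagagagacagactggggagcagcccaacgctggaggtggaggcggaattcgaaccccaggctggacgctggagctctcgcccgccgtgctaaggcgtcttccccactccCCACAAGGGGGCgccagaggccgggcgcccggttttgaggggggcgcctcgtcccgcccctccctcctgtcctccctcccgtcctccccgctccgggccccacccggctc
REPS1, chr6:138988254-138988503, minus strand, lower in HU: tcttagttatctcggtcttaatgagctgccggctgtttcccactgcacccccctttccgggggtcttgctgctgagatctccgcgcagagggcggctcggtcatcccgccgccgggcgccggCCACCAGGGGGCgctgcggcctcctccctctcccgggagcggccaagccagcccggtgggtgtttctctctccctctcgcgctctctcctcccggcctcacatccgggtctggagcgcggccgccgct
TP73, chr1:3652266-3652515, plus strand, lower in HU: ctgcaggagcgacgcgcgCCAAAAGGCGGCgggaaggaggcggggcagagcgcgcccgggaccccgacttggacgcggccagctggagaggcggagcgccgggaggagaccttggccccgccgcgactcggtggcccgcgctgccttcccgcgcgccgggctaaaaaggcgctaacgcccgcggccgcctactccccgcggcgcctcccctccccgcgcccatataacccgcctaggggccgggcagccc
TRAF3IP3, chr1:209755803-209756052, plus strand, lower in HU, with the match on the opposite strand: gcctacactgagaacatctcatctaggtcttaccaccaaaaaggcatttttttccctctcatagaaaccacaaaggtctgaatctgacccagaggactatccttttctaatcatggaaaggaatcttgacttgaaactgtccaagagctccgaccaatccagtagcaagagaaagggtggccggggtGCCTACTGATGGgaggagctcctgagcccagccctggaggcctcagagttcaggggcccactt
EHD2, an ATPase of caveolae, had 86 counts in HU and 57 in H2O over 2 loops (log2 0.61, 0.11 to 1.12). REPS1, an adaptor of endocytosis, had 70 and 106 over 2 loops (-0.58, -1.04 to -0.13). TP73, a transcription factor gene, had 150 and 211 over 4 loops (-0.47, -0.79 to -0.17). TRAF3IP3, an adaptor protein of lymphocytes, had 75 and 106 over 2 loops (-0.48, -0.93 to -0.04).

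Short loops carried more contact and long loops less contact in HU than in H2O. Loops of 30 to 59 kb summed to 79705 counts in HU and 74627 in H2O (log2 0.11, 0.10 to 0.13, 2110 loops). Loops of 10 to 29 kb gave 0.05 (0.03 to 0.07) and those of 60 to 99 kb 0.03 (0.01 to 0.04). The sign turned beyond 100 kb, with -0.02 (-0.04 to -0.01) from 100 to under 150 kb and -0.08 (-0.09 to -0.06) from 150 to under 250 kb. Loops of 250 to under 500 kb summed to 37708 and 41394 counts (-0.12, -0.14 to -0.10, 1637 loops), and the 365 loops of 500 to 1000 kb to 7190 and 8021 (-0.14, -0.19 to -0.09). The share of single loops above 0 went the same way, from 61.7% at 30 to 59 kb to 40.5% at 500 to 1000 kb. Scaling by all listed loops adds 0.05 to every log2 ratio here and turns the sign from 100 to under 150 kb, and scaling by the median ratio takes 0.02 off.

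**Figure D1:**
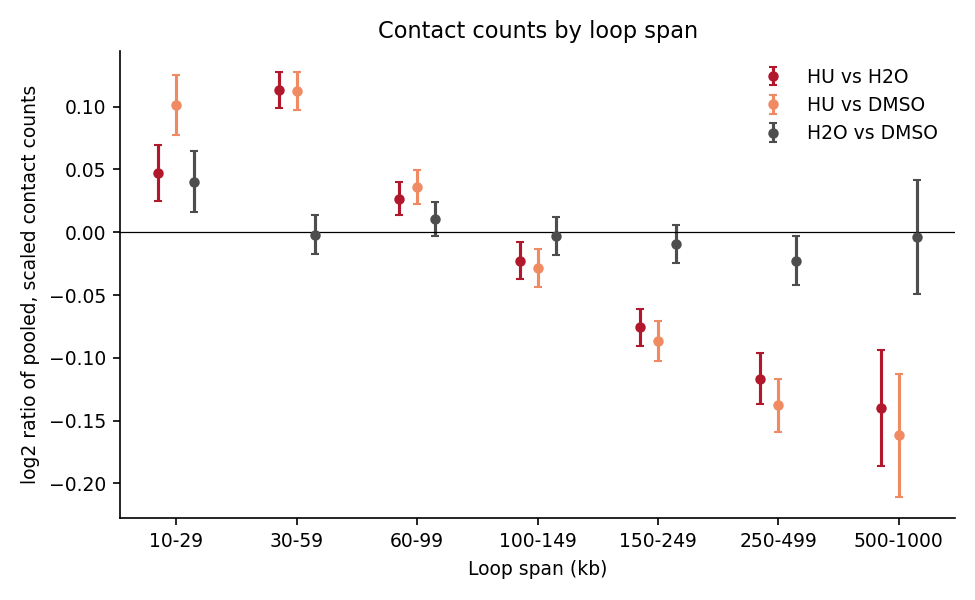
Log2 ratio of pooled contact counts (vertical axis) by loop span in kb (horizontal axis) for HU vs H2O, HU vs DMSO and H2O vs DMSO, each over the loops that both libraries list; bars are 95% exact intervals for counting error. HU vs H2O runs from 0.11 at 30 to 59 kb to -0.14 at 500 to 1000 kb, while H2O vs DMSO stays between -0.02 and 0.04.

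The difference between loops of at least 250 kb and loops under 60 kb was -0.21 (-0.24 to -0.19) for HU against H2O. It was -0.25 (-0.27 to -0.23) for HU against DMSO, which shares the HU library, and -0.03 (-0.05 to -0.01) between the untreated H2O and DMSO libraries. The lists themselves differed alike. Loops of 30 to 59 kb made up 19.5% of the HU list (19.0% to 20.1%), 15.3% of the H2O list (14.8% to 15.8%) and 15.97% of the DMSO list (15.4% to 16.5%). Loops of 250 to under 500 kb made up 10.5%, 12.8% and 13.1% of them.

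The dependence on span was also seen among loops that start from the same bin. At 5858 anchors with several shared loops, the longest and the shortest were compared, with median spans of 140 and 80 kb. The long loops had 172467 counts in HU and 182288 in H2O, the short ones 189504 and 186527, a difference of -0.10 (-0.12 to -0.09). A loop could enter at both of its anchors, so intervals of this comparison may be too narrow. The long loop had the lower ratio at 3323 of these anchors, 56.7%. At 986 anchors whose longest loop spanned at least 3 times the shortest, the difference was -0.27 (-0.30 to -0.23). H2O against DMSO gave -0.02 and, at such anchors, -0.05 (-0.08 to -0.01).

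Contact at anchors that carry many loops was lower in HU. To keep the choice of anchors apart from the compared libraries, loops per anchor were counted in the DMSO list and a loop was classed by its busier anchor. The 423 loops with 0 DMSO loops at that anchor gave 0.02 (-0.02 to 0.07), outside the order of the other classes. Loops with 1 DMSO loop at that anchor gave 0.09 (0.07 to 0.11) and those with 3 or 4 gave 0.02 (0.01 to 0.03). Those with 5 to 7 gave -0.06 (-0.08 to -0.05) and those with 8 or more -0.07 (-0.09 to -0.05). Relative to loops of the same span the last of these was -0.06 (-0.08 to -0.04). At anchors with 5 or more DMSO loops, loops under 60 kb were higher by 0.10 (0.08 to 0.12), loops of 60 to under 250 kb gave -0.09 (-0.11 to -0.08) and loops of at least 250 kb gave -0.21 (-0.25 to -0.18). At anchors with 1 or 2 DMSO loops, the values were 0.08 (0.06 to 0.10), 0.07 (0.06 to 0.09) and -0.03 (-0.06 to 0.0049). Counted in the APH list instead, a choice made after seeing the data, loops at anchors with 5 or more gave -0.03 in all and 0.12 (0.10 to 0.14), -0.06 and -0.19 in the same 3 span classes. Those at anchors with 1 or 2 APH loops gave 0.03 (-0.00058 to 0.05), 0.06 and -0.02, so that loops under 60 kb also differed between busy and sparse anchors in this count.

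**Figure D2:**
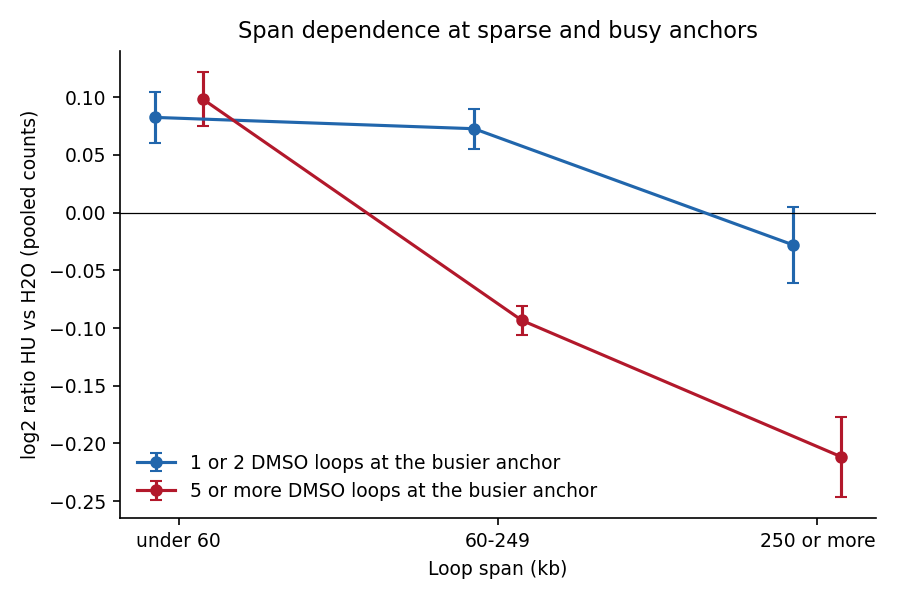
Log2 ratio of pooled contact counts in HU vs H2O (vertical axis) by loop span in kb (horizontal axis), for loops whose busier anchor carries 1 or 2 loops and for those with 5 or more in the DMSO list; bars are 95% exact intervals for counting error. Both groups lie near 0.1 under 60 kb, and from 60 to under 250 kb they part to 0.07 and -0.09.

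Strong loops in the untreated DMSO library had lower ratios than weaker ones among loops of at least 100 kb, and less steadily so among shorter loops. Over all spans the ratio went from 0.01 (-0.01 to 0.04) with 12 to 15 counts in DMSO to -0.02 (-0.03 to -0.01) with 51 or more. Among loops of at least 100 kb, those with 12 to 15 counts in DMSO gave -0.02 (-0.05 to 0.01), those with 31 to 50 gave -0.10 (-0.12 to -0.08) and those with 51 or more gave -0.12 (-0.14 to -0.10). Loops under 100 kb lay above 0 in every class of strength, at 0.09 (0.05 to 0.13) with 12 to 15 counts and 0.09 with 16 to 20. They gave 0.11 (0.09 to 0.13) with 21 to 30, 0.07 (0.05 to 0.09) with 31 to 50 and 0.04 (0.03 to 0.06) with 51 or more. The middle class was thus highest, and the intervals of the weakest and strongest classes overlapped. Position relative to genes went with small differences. Loops without an anchor on a gene gave 0.02 (0.01 to 0.04, 2503 loops), and the intervals of loops with 1 anchor on a gene, anchors on 2 genes or both anchors on 1 gene all held 0. Loops with both anchors inside 1 gene were short, with a median of 70 kb, and lay at -0.04 (-0.06 to -0.02) relative to loops of like span. Loops that join 2 promoters gave 0.14 (0.07 to 0.20, 109 loops) under 60 kb, where loops without a promoter gave 0.09 (0.08 to 0.11) and the intervals overlapped. Longer loops between promoters gave -0.05 (-0.12 to 0.01) from 60 to under 250 kb and -0.22 (-0.45 to 0.01) beyond.

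Single loops were called where they differed at least 1.5-fold, their interval left out a ratio of 1 and both libraries together held at least 60 counts. Of 4453 loops with that depth, 240 were higher in HU (5.39%) and 193 lower (4.33%), together 9.72%. The same rule called 3.08% of 4089 loops between H2O and DMSO. Scaling by all listed loops moved the higher share of these calls from 55.4% to 66.4%, and dividing by the expected count moved it to 41.5%. The higher loops had a median span of 60 kb, with 116 under 60 kb and 2 of at least 250 kb. The lower loops had a median of 130 kb, with 32 under 60 kb and 28 of at least 250 kb. Against the DMSO library, the higher loops had a median of 0.64 in HU and -0.22 in H2O, and the lower ones -0.52 in HU and 0.27 in H2O. Each of these medians shares a library with the comparison that chose the loops.

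The loop with the highest ratio joined the collagen gene COL16A1 to a bin 45 kb away (chr1:31660001-31710000) and had 84 counts in HU, 27 in H2O and 44 in DMSO (1.66, 1.01 to 2.34). HU stood above both untreated libraries there, and H2O was the lower of these. A loop between bins without a gene, chr1:157875001-157950000, had 46 counts in HU and 15 in H2O and was not listed in DMSO (1.63, 0.77 to 2.58). From SPR, the gene of the last enzyme of tetrahydrobiopterin synthesis, 1 loop ran to EMX1 with 57, 20 and 26 counts in HU, H2O and DMSO (1.53). Its neighbour, which ended in the next bin, had 91, 33 and 38 (1.48). A loop of 25 kb at MMP9, a matrix metalloproteinase gene, had 51, 18 and 22 counts (1.52, 0.72 to 2.38). At THRA, a thyroid hormone receptor gene, the counts were 55, 20 and 52 (1.48), so that the H2O library stood apart from both others.

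The 6 loops with the lowest ratios spanned 95 to 565 kb. A loop of 565 kb on chr1:248240001-248810000, with an anchor on the olfactory receptor gene OR2M4, had 22 counts in HU, 59 in H2O and 30 in DMSO (-1.41, -2.18 to -0.68). HU against DMSO gave -0.55 (-1.41 to 0.29) there, and H2O against DMSO 0.86 (0.20 to 1.54). The loop of 415 kb between LRRC28 and MEF2A, a transcription factor gene, had 17, 44 and 55 counts (-1.35, -2.25 to -0.52), with HU lowest and both untreated libraries well above it. The loop chr2:37395001-37880000 spanned 480 kb without a gene at its anchors and had 22, 56 and 48 counts (-1.33). Loops at NSRP1 (24, 59 and 35 counts), at PTMA (20, 49 and 28) and at FYN (20, 47 and 25) followed, with ratios of -1.28, -1.27 and -1.21. After scaling, DMSO lay between HU and H2O in these 3 loops, and the interval of HU against DMSO held 0 in each. DMSO also lay between them in the loops of 565 and 480 kb. The 5 loops with most counts in HU all lay above 0, with ratios from 0.08 to 0.39. The HU count that picked them also enters the ratio, which favours values above 0. The strongest, 25 kb long on chr15:45430001-45460000, had 322 counts in HU and 258 in H2O (0.34, 0.10 to 0.58), and that between SPINT1 and VPS18 227 and 176 (0.39, 0.09 to 0.68). Intervals of the other 3 held 0.

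For genes, counts of all shared loops with an anchor on the gene body were summed, and genes with the same loops were taken as 1 place. A place was called at a 1.3-fold difference, with an interval that left out a ratio of 1 and at least 100 counts in both libraries together. Of 2688 places with that depth, 162 were higher in HU (6.03%) and 130 lower (4.84%), together 10.9%, against 3.04% of 2530 places between H2O and DMSO. Higher calls made up 55.5% of the total, 71.2% under scaling by all listed loops, 37.9% after division by the expected count and 66.8% for anchors near gene ends. The higher genes had loops of 65 kb (median of places) and a median length of 37.5 kb, the lower ones loops of 130 kb and a length of 86.6 kb. Against DMSO, HU gave a median of 0.38 and H2O of -0.15 for the higher genes, and -0.34 and 0.12 for the lower ones. Of the 12 lowest genes named next, the interval of HU against DMSO held 0 for 7, namely CFLAR, CAMK1D, GNAI3, PIEZO2, MORC3, PMF1 and RCOR1. Of the 12 highest it did so for 4, namely COL16A1, NDUFAF4, TLL2 and BPIFB4.

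**Figure D3:**
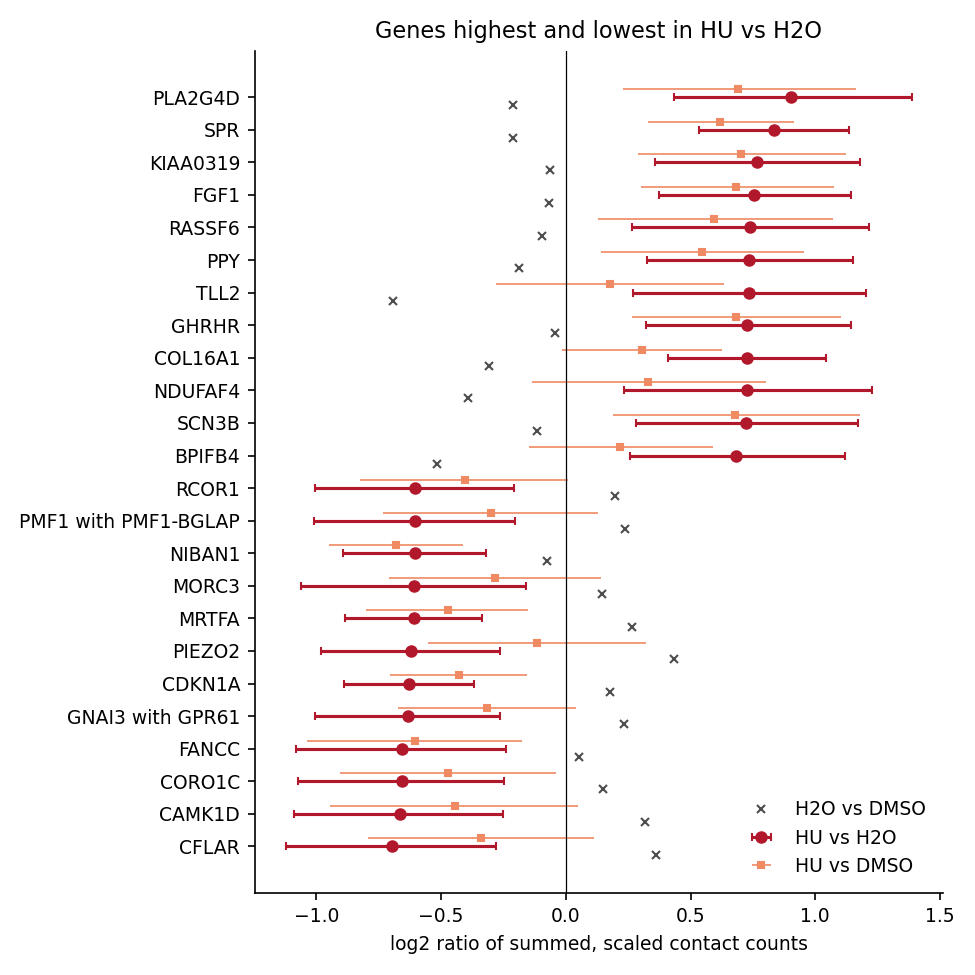
Log2 ratio of summed contact counts (horizontal axis) for the 12 highest and 12 lowest genes in HU vs H2O with at least 3 shared loops and 150 counts, with HU vs DMSO and H2O vs DMSO beside it; bars are 95% exact intervals for counting error. The genes were chosen by HU vs H2O, which runs from 0.90 at PLA2G4D to -0.70 at CFLAR, and HU vs DMSO lies on the same side of 0 with a smaller size for all but NIBAN1.

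CFLAR, CDKN1A and FANCC, genes of cell death, cell cycle arrest and DNA repair, were among the 12 with the lowest ratios. CFLAR (chr2:201116164-201176687), which encodes an inhibitor of caspase-8 activation, had 78 counts in HU, 128 in H2O and 92 in DMSO over 3 loops (-0.70, -1.12 to -0.28). HU against DMSO gave -0.34 (-0.79 to 0.11) for CFLAR, and anchors near its gene ends gave -0.08 (-0.32 to 0.17) against H2O, so the call was lost in both. CDKN1A (chr6:36676463-36687332), which encodes the cyclin-dependent kinase inhibitor p21, had 200 counts in HU and 313 in H2O over 4 loops, all lower in HU (-0.63, -0.89 to -0.37). Its loop to a bin 60 kb upstream had 81, 120 and 107 counts in HU, H2O and DMSO, and the loop to CPNE5 43, 75 and 52. All 4 started from the bin chr6:36680001-36685000, and HU against DMSO gave -0.43 (-0.70 to -0.15). FANCC (chr9:95099054-95317709), a subunit gene of the Fanconi anaemia core complex, had 79, 126 and 112 counts over 3 loops of 345 to 450 kb (-0.66, -1.08 to -0.24). In all 3 loops the bin on FANCC also lies on AOPEP, so the counts cannot be assigned to FANCC alone.

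Regulators of the cytoskeleton and of transcription followed. MRTFA (chr22:40410289-40636719), which encodes an actin-sensing coactivator of serum response factor, had 182 counts in HU and 281 in H2O over 9 loops, 8 of them lower (-0.61, -0.89 to -0.33). Its 3 loops whose intervals lay below a ratio of 1 had 24, 23 and 15 counts in HU against 43, 40 and 33 in H2O. CORO1C, which encodes an actin-binding coronin, had 82 and 131 counts over 3 loops that all run to SSH1, the gene of a cofilin phosphatase (-0.66). RCOR1, the gene of a corepressor of the CoREST complex, had 89 and 137 (-0.60), and MORC3, which encodes a nuclear ATPase, 70 and 108 (-0.61). PMF1, a kinetochore gene read here together with PMF1-BGLAP, had 87 and 134 (-0.61).

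The remaining low genes encode kinases, G proteins and membrane proteins. CAMK1D, a calmodulin-dependent kinase gene, had 79 and 127 counts over 4 loops of 205 to 460 kb (-0.67), of which the loop chr10:12260001-12715000 held 30 in HU, 62 in H2O and 41 in DMSO. GNAI3, which encodes an inhibitory G protein, shared its 4 loops with GPR61 and had 102 and 160 (-0.63). PIEZO2, the gene of a mechanically gated channel, had 108 and 168 over 4 loops (-0.62, -0.98 to -0.26), but HU against DMSO gave only -0.12 (-0.55 to 0.32) and H2O against DMSO 0.43 (0.07 to 0.80). NIBAN1, a stress response gene, had 170 and 262 over 5 loops (-0.61, -0.89 to -0.32), with -0.68 (-0.95 to -0.41) against DMSO. Its value rested on the loop chr1:184805001-184985000, which had 68, 135 and 124 counts in HU, H2O and DMSO.

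A phospholipase gene, SPR and a growth factor gene led the 12 genes with the highest ratios. PLA2G4D (chr15:42067009-42094562), a cytosolic phospholipase A2 gene, had 109 counts in HU and 59 in H2O over 3 loops, all higher (0.90, 0.43 to 1.39). The loop to its neighbour PLA2G4F had 52, 21 and 23 counts in HU, H2O and DMSO. SPR (chr2:72887408-72892158) had 257 and 146 over 6 loops (0.83, 0.54 to 1.14). Its loops of 40, 45 and 80 kb had 57, 91 and 49 counts in HU against 20, 33 and 32 in H2O, and those of 85, 270 and 285 kb 27, 13 and 20 against 28, 17 and 16. After division by the expected count, SPR gave 0.30 (-0.0024 to 0.60) and was no longer called. FGF1, which encodes a fibroblast growth factor, had 155 and 93 (0.76, 0.37 to 1.14), with 85, 40 and 41 counts in HU, H2O and DMSO for its loop of 40 kb. KIAA0319, a gene studied in neuronal migration, had 136 and 81 over 3 loops (0.77), of which 2 ended on ACOT13.

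Hormone and receptor genes were also present. PPY, which encodes pancreatic polypeptide, had 133 and 81 counts (0.73, 0.32 to 1.15). Its 2 loops to PYY, the gene of peptide YY, had 51 and 57 counts in HU against 25 and 21 in H2O, and its loop to LSM12 25 against 35. GHRHR, the receptor gene for growth hormone releasing hormone, had 134 and 82 (0.73), and against DMSO HU gave 0.68 (0.27 to 1.10). COL16A1 had 222 and 136 over 6 loops (0.73, 0.41 to 1.04), and its 2 loops of 120 and 125 kb had 14 and 45 counts in HU and 15 and 47 in H2O. SCN3B, a sodium channel subunit gene, gave 0.72, RASSF6, a gene of the Ras association family, 0.74, and NDUFAF4, an assembly factor gene of respiratory complex I, 0.72. TLL2, a metalloproteinase gene, had 105 and 64 (0.73) and BPIFB4 119 and 75 (0.68). For TLL2 and BPIFB4, H2O was itself below DMSO, by -0.69 (-1.23 to -0.16) and -0.52 (-0.97 to -0.07), and HU against DMSO gave 0.18 and 0.22 with intervals that held 0. For COL16A1 and NDUFAF4 HU against DMSO gave 0.30 (-0.01 to 0.63) and 0.33 (-0.13 to 0.80).

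**Figure D4:**
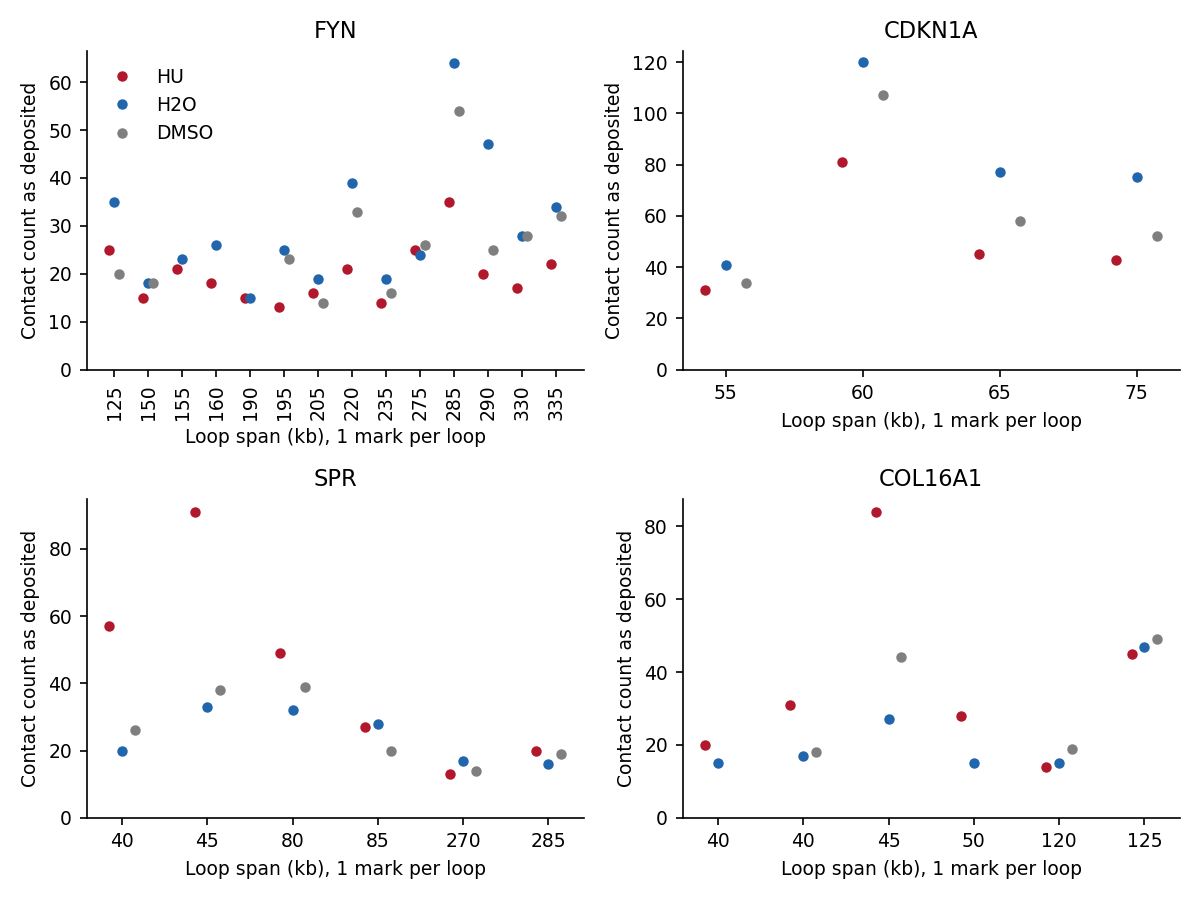
Deposited contact count of each shared loop (vertical axis, from 0) at FYN, CDKN1A, SPR and COL16A1 in HU, H2O and DMSO, with loops ordered by span in kb (horizontal axis, not to scale); a missing grey point is a loop that the DMSO list does not hold. HU lies below H2O in all 4 loops of CDKN1A, and above H2O in the loops of SPR and COL16A1 shorter than 85 kb.

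Of the genes that carry the signal of the B cell receptor, FYN, STIM1, GRB2, ITPR1 and PIK3R1 had less contact in HU. The receptor signals through kinases of the SRC family and SYK to adaptors, phosphoinositide 3-kinase, phospholipase C and, through calcium, to NFAT and NF-kB. Of 28 listed genes of this pathway, 17 had a shared loop and 12 had at least 100 counts, of which 5 were lower and 0 higher, beside 4.84% lower over all places. The median of the 17 was -0.28, beside 0.02 over 5711 genes with a shared loop, and 3 of the 17 lay above 0. Values of FYN, STIM1 and GRB2 were known when the list was written, so the list is not independent evidence of its direction. Relative to loops of the same span, or with anchors near gene ends only, 3 genes of the list were called lower. PIK3R1 lost its call with DMSO as the vehicle (-0.30, -0.69 to 0.08), relative to span (-0.33), under scaling by all listed loops (-0.34) and with anchors matched within 1 bin (-0.32). After division by the expected count, ITPR1 gave -0.15 (-0.34 to 0.04) and STIM1 -0.22 (-0.54 to 0.10), so that neither was called. Near gene ends FYN gave -0.47 (-1.27 to 0.31) and GRB2 -0.23 (-0.47 to 0.02).

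**Figure D5:**
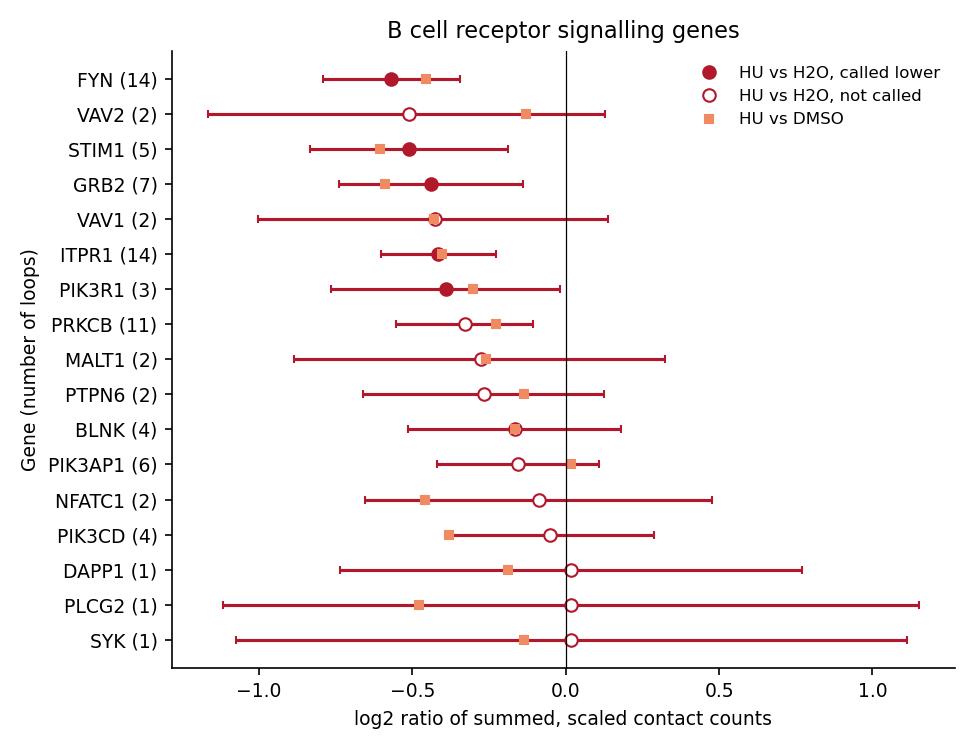
Log2 ratio of summed contact counts in HU vs H2O (horizontal axis) for the 17 genes of B cell receptor signalling with a shared loop, with HU vs DMSO as squares and the number of loops in brackets; bars are 95% exact intervals for counting error. Of the 17 genes, 5 are called lower (filled points), and the 3 points above 0 are those of SYK, PLCG2 and DAPP1 at 0.02, with 1 loop each.

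Upstream in the pathway, FYN (chr6:111660332-111873452), which encodes a SRC family kinase, had 277 counts in HU and 416 in H2O over 14 loops of 125 to 335 kb, 12 of them lower (-0.57, -0.79 to -0.35). Of these loops, 12 ran from different bins of the gene to 1 bin without a gene, chr6:111995001-112000000, so that they do not count as separate cases. The loop of 285 kb had 35 counts in HU, 64 in H2O and 54 in DMSO, and that of 220 kb 21, 39 and 33. HU against DMSO gave -0.46 (-0.69 to -0.22) for FYN, and H2O against DMSO 0.14 (-0.07 to 0.36). SYK, with 1 loop of 16 counts in each library, showed no difference that its depth could resolve.

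Among adaptors and lipid kinases, GRB2 (chr17:75318076-75405678) had 161 counts in HU and 221 in H2O over 7 loops, 6 lower (-0.44, -0.74 to -0.14), and -0.59 against DMSO. Its loop of 90 kb, from the gene to a bin without a gene, had 19, 44 and 25 counts in HU, H2O and DMSO. The loop of 80 kb inside the gene had 37, 59 and 73. PIK3R1, the regulatory subunit gene of phosphoinositide 3-kinase, had 107 and 142 over 3 loops (-0.39, -0.77 to -0.02). PIK3CD, the catalytic subunit gene of lymphocytes, gave -0.05 (-0.39 to 0.29) and the adaptor genes BLNK and PIK3AP1 -0.17 and -0.15, with intervals that held 0. VAV1 and VAV2, exchange factor genes, gave -0.43 and -0.51, each over 2 loops and below the depth set for a call.

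The calcium branch held 2 called genes. ITPR1 (chr3:4493348-4847506), which encodes a calcium release channel of the endoplasmic reticulum, had 411 counts in HU and 555 in H2O over 14 loops, all lower (-0.42, -0.60 to -0.23). Its loop of 25 kb had 67, 108 and 70 counts in HU, H2O and DMSO, and that of 255 kb to BHLHE40 52, 57 and 62. STIM1 (chr11:3854604-4093210), the sensor of calcium in that store, had 138 and 199 over 5 loops of 210 to 230 kb, 4 of which ended in 1 bin (-0.51, -0.83 to -0.19), and -0.61 (-0.93 to -0.28) against DMSO. PRKCB, a protein kinase C gene, had 301 and 383 over 11 loops (-0.33, -0.55 to -0.11), under the 1.3-fold set for a call. NFATC1 and MALT1, further downstream, gave -0.09 and -0.28 with intervals that held 0.

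Of 26 genes of nucleotide supply, the process that hydroxyurea acts on, 4 had a shared loop, 3 had the 100 counts that a call needs and none was called. TK1, the thymidine kinase gene, had 116 and 139 counts (-0.24, -0.61 to 0.12), and IMPDH1, of guanine nucleotide synthesis, 32 and 20 over 1 loop (0.70, -0.15 to 1.58). RRM1 and RRM2, the subunit genes of ribonucleotide reductase, were not among the 4. Over all places 6.03% were called higher and 4.84% lower, and lists this small cannot be set apart from those shares. Of 17 measured genes of replication and its checkpoint, with a median of -0.14, 8 had 100 counts, of which 1 was called higher and 0 lower. This was ATRIP, the partner gene of the checkpoint kinase ATR, with 191 and 144 counts over 5 loops (0.43, 0.11 to 0.75). Its difference came from 1 loop with 103, 58 and 53 counts in HU, H2O and DMSO, whose anchor also lies on TREX1 and SHISA5. After division by the expected count, ATRIP gave 0.0070 (-0.31 to 0.33) and the call was lost. The lowest was DBF4, an activator of replication origins, with 12 and 24 counts over 1 loop (-0.98, -2.12 to 0.07).

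In the list of fork protection and repair, 4 of 10 measured genes had 100 counts, of which FANCC was lower, though among loops of at least 24 counts its interval held 0 (-0.49, -1.09 to 0.09). BLM, a helicase gene, had 41 and 19 counts over 1 loop (1.13, 0.31 to 1.99), which is below the depth set for a call. Of 12 measured genes in the list of DNA damage response targets, with a median of -0.04, 4 had 100 counts, of which CDKN1A was lower. ZMAT3 had 34 and 61 counts (-0.83, -1.48 to -0.20) over 2 loops, too thin for a call. Of 10 measured apoptosis genes, 6 had 100 counts, of which CFLAR was lower, and the highest was BAD at 0.28 (-0.46 to 1.03). Beside these single calls, 4.84% of all places were lower, and so few genes cannot set a list apart from that share. At the neighbours of CFLAR the values were 0.19 (-0.07 to 0.44) for CASP10 and -0.11 (-0.35 to 0.14) for CASP8.

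B cell identity genes did not pass the rule. Of 18 measured, 12 had 100 counts and none was called, beside 10.9% of all places. Their median was -0.12 and 6 lay above 0. POU2AF1, a coactivator of octamer factors, had 295 and 340 counts over 7 loops (-0.19, -0.42 to 0.04), and BLK, a SRC family kinase gene, 188 and 220 (-0.21, -0.50 to 0.08). CD79A gave -0.57, and CD74 and BCL11A were highest at 0.16, with intervals that held 0. Of 12 measured NF-kB and latency responsive genes, 7 had 100 counts and none was called, from RELB at -0.47 to REL at 0.22. CCR7, a homing receptor gene, had 266 and 329 counts (-0.29, -0.53 to -0.05), under 1.3-fold.

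Other lists gave single values. Among 9 measured genes of cohesin, its regulators and CTCF, 6 had 100 counts and none was called, from SMC3 at -0.67 (-1.79 to 0.39, 1 loop) to STAG1 at 0.28 (-0.16 to 0.72). Of 23 globin genes and regulators, which bear on the clinical use of hydroxyurea to raise fetal haemoglobin, 6 had a shared loop, 4 had 100 counts and none was called. KLF1, an erythroid factor gene, had 36 and 19 counts over 1 loop (0.94, 0.10 to 1.82) and LMO2 120 and 135 (-0.15). Common fragile site genes, which break under slowed replication, had 13 measured members, 8 of them with 100 counts, none called and a median of 0.05, with MACROD2 lowest at -0.36 over 1 loop. H4C3 was the only replication-dependent histone gene with a shared loop (35 and 61 counts, -0.78, -1.43 to -0.16). HOXB3 was the 1 called gene of 12 measured in the HOX clusters (134 and 178 counts, -0.39, -0.73 to -0.06), of which 7 had 100 counts. Its call was lost with DMSO as the vehicle (-0.29, -0.62 to 0.04), after division by the expected count (-0.28, -0.61 to 0.06) and among loops of at least 24 counts (-0.23, -0.76 to 0.29). HOXB5 at -0.42 and HOXD8 at 0.97 were the ends of that list. T cell genes ran from TCF7 at -0.23 to CD4 at 0.21 and the 3 measured myeloid and erythroid genes from S100A9 at 0.32 to S100A8 at 0.41, with none called. Over the 15 lists, 10 of the 87 members with 100 counts were called, 11.5%, which is near the 10.9% of all places.

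Anchors were summed in the same way, with at least 3 loops and 100 counts. Of 2400 such bins, 134 were higher in HU (5.58%) and 139 lower (5.79%), together 11.4%, against 2.58% of 2285 between H2O and DMSO. Higher calls made up 49.1% of these, and 64.9% under scaling by all listed loops, 29.4% after division by the expected count and 31.6% among loops of at least 24 counts. Among the 457 with at least 5 loops, the lowest was chr8:127300001-127305000, a bin without a gene that lies 430 kb from MYC and 108 kb from POU5F1B. Its 6 loops held 317 counts in HU and 501 in H2O and were all lower (-0.64, -0.85 to -0.44), with -0.52 (-0.73 to -0.31) against DMSO. The strongest of them, 90 kb long, had 93, 193 and 147 counts in HU, H2O and DMSO, and the loop of 255 kb towards MYC 24, 47 and 35. HU was below both untreated libraries in both of these loops.

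At chr4:40305001-40310000 all 7 loops, which end on N4BP2 and on RHOH, a GTPase gene of lymphocytes, were lower, with 318 and 468 counts in all (-0.54, -0.75 to -0.33). The longest of them had 51, 85 and 63 counts. At chr20:43750001-43755000 all 8 loops towards TOX2, an HMG-box factor gene, were lower, with 176 and 253 (-0.51, -0.79 to -0.22). The bin chr17:30335001-30340000, beside TMIGD1, gave -0.53, with 3 of 5 loops lower. The highest bin was that of SPR. Next came chr11:73185001-73190000, whose 5 loops to the nucleotide receptor genes P2RY2 and P2RY6 were all higher, with 341 and 230 counts (0.59, 0.34 to 0.83), and 0.53 (0.27 to 0.80) against DMSO. Its loop of 50 kb had 124, 64 and 64 counts. Bins at NPAS4 and NR4A1, both genes of early response factors, gave 0.56 (0.27 to 0.85) and 0.51 (0.17 to 0.85), and a bin at DRC10 0.53, with 5 of 5 loops higher, to TPCN1 and SLC8B1 among others.

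Windows of 1 Mb with at least 200 counts were summed after the data had been seen. Of 1052 windows, 42 were at least 1.3-fold higher in HU (3.99%) and 30 lower (2.85%), together 6.84%, against 0.808% of 990 between H2O and DMSO. The window on chromosome 8 from 127 to 128 Mb, which holds MYC and the bin with the lowest ratio, had 598 counts in HU and 881 in H2O over 16 loops (-0.54, -0.69 to -0.39). That on chromosome 10 from 12 to 13 Mb, mostly loops of CAMK1D, gave -0.67 (-1.01 to -0.35), and that on chromosome 2 with IKZF2, a lymphocyte zinc finger factor gene, -0.49 (-0.83 to -0.15) over 5 loops. The highest window, on chromosome 10 from 52 to 53 Mb, had 134 and 71 counts over 3 loops without a gene at their anchors (0.93, 0.51 to 1.37). Windows with loops of ATG2B, an autophagy gene, and of CASQ2, a calsequestrin gene of heart muscle, gave 0.67 (0.32 to 1.02) and 0.59 (0.37 to 0.82). At POU2F3, an octamer factor gene, the window gave 0.59 (0.35 to 0.84), but H2O there lay below DMSO by -0.39 (-0.65 to -0.12) and HU against DMSO gave 0.18 (-0.04 to 0.41).

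Many loops were listed on 1 side only, which does not make them absent from the other library. In HU 8308 loops, 38.7% of its list, were not listed in H2O, and in H2O 9306, 41.5%, were not listed in HU. Both sets had a median of 16 counts, close to the lowest deposited count of 12. The HU-only loops were shorter, with a median of 75 kb against 105 kb and 39.2% (38.2% to 40.3%) against 26.7% (25.8% to 27.6%) under 60 kb. A loop within 1 bin at each anchor was in the other list for 38.6% and 42.2% of them, and the DMSO list held 21.3% and 24.95%.

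Some genes gathered such loops on 1 side. Of the HU-only loops, 13 lay on NR6A1, an orphan nuclear receptor gene, which had 3 H2O-only loops, 12 on ANXA4 (4 H2O-only) and 10 on UBASH3A (0 H2O-only), a suppressor gene of T cell receptor signals. GNG7, MOB3B, NAV2 and SMPD3 had 9 each, with 13, 6, 5 and 1 H2O-only loops. The shared loops of NR6A1 summed to 567 and 584 counts (-0.02, -0.19 to 0.14), so that their totals were close to each other. Of the H2O-only loops, 21 lay on PDE4B, a cyclic AMP phosphodiesterase gene (7 HU-only), 19 on ITPR1 (7), 17 on SMG6 (2), 16 on PALM2AKAP2 (4) and 15 on MYO1D (4). SMG6, a gene of nonsense-mediated decay, was also lower over its 5 shared loops, with 122 and 177 counts (-0.52, -0.86 to -0.18).

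The HU-only loops with most counts were chr4:184265001-184285000 with 132, chr2:64915001-64940000 with 118, and one between ADAMTSL4 and MCL1, an anti-apoptotic gene, with 110. The last was listed in DMSO with 86 counts, the others were not. The H2O-only loops with most counts were one of 10 kb at DAD1 with 215, chr12:27220001-27240000 with 108 and one within GNG7 with 108. The DAD1 loop was listed in DMSO with 188 counts, so a strong loop can be missing from a single list.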

How the data were processed

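SMC1 HiChIP loop lists of 4 libraries were used, 1 each of DMSO, APH, H2O and HU, grouped by the treatment in the labels. The submitters' processing notes name bcl2fastq 2.17, MACS3 3.0.1 and build hg38, while aligner and loop caller were not given in the sources used here. Each library has 1 list deposited by the authors without a header. Its deposited contact counts are whole numbers from 12 up, without normalization, for pairs of 5 kb bins. The deposited score column was taken as the count expected under a background model, and the deposited p-value column as an adjusted p, below 0.01 for every loop; columns of cluster marks were not used. An unlisted pair is not a 0. Without molecular identifiers, PCR reads do not count as independent molecules, so intervals may be too narrow.

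Loops were matched by chromosome and both bin starts. Ratios, exact conditional intervals at 95% and shares with Clopper-Pearson intervals came from scipy 1.17.1 under Python 3.11.15, with tables in pandas 2.3.3 and numpy 2.4.6 and plots in matplotlib 3.10.9, without pseudocount. Intervals of differences between log2 ratios used a normal approximation. No p-value was computed, since each group has 1 library. Calls follow the folds and minimum counts in the text. Genes came from RefSeq (GRCh38.p14), and 15813 of 19974 had a promoter sequence. The text names the 12 highest and 12 lowest genes (at least 3 loops, 150 counts, interval without 1), every called member and both ends of each of 15 gene lists, the 6 highest and lowest loops (at least 60 counts), the 5 highest and lowest bins with at least 5 loops, and the 5 genes (with ties) with most loops and the 3 loops with most counts listed on 1 side. The 5 strongest loops by HU count, the promoters shown, SMG6 and further list members were named after their values were seen. The members, lists and rules were chosen with earlier results of these data known. The steps were tested on simulated data. Some items that the rule names are not reported here.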

Additional observations from a re-analysis of the deposited data

How the results depend on the processing

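No difference has a replicate check, and leaving out a replicate was not possible with 1 library a group. No paired analysis was possible because each group holds 1 library and the groups share fewer than 2 replicate numbers. The depth of the lists limits single loops, with a median of 24 counts.

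The 162 higher genes became 104 when loops needed at least 24 counts in both libraries, 81 after division by the expected count and 40 when anchors had to hold the promoter, an assignment added after seeing the reference tables. The 130 lower genes became 86 under scaling by all listed loops, 82 with anchors within 5 kb of a gene end and 35 with promoter anchors. With at least 24 counts, the 134 higher and 139 lower anchor bins became 18 and 39, as fewer bins kept enough loops. With promoter anchors ATRIP turned to -0.12 (-1.07 to 0.82) and NIBAN1 to 0.27 (-0.53 to 1.08). With DMSO as the vehicle, 18 of 31 named genes kept an interval without a ratio of 1 and 13 did not, with none reversed. With loops listed in all 4 libraries, 31 kept it. The fold and depth set for a call were not applied in these counts.

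The span difference of -0.21 became -0.25 both over loops listed in all 4 libraries and with DMSO as the vehicle, and -0.26 after division by the expected count. Loops with both anchors on 1 gene, at -0.0090, became -0.041 relative to span and 0.017 with DMSO as the vehicle. Chromosomes whose interval excluded a ratio of 1 fell from 7 to 4 with DMSO. The B cell receptor genes called lower became 3 relative to span and 3 near gene ends. Loops at busy anchors moved from -0.065 to -0.030 when counted in the APH list. Loops listed on 1 side only became 2623 in HU and 3038 in H2O with at least 24 counts. With DMSO as the vehicle, 5744 loops were listed in DMSO and not in HU, whether or not H2O listed them. The cause of these changes was not tested except where stated.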

Other observations

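Whole chromosomes differed little. Chromosomes 11 (log2 0.07, 0.05 to 0.10), 19 (0.06, 0.03 to 0.08) and 15 (0.04, 0.0033 to 0.07) lay above 0, and 21 (-0.14, -0.21 to -0.07), 8 (-0.07, -0.10 to -0.03), 6 (-0.06, -0.09 to -0.03) and 2 (-0.05, -0.07 to -0.02) below, with intervals that exclude a ratio of 1. Relative to loops of the same span, chromosome 11 stayed at 0.06 (0.04 to 0.09), while chromosome 19 gave 0.02 (-0.01 to 0.04) and the interval of chromosome 15 held 0 (-0.00037 to 0.07). Against DMSO, chromosome 11 gave 0.07 (0.05 to 0.10). Chromosome 15 gave 0.01 (-0.02 to 0.05), chromosome 19 gave 0.02 (-0.01 to 0.05) and chromosome 21 -0.04 (-0.11 to 0.04). The values of chromosomes 15, 19 and 21 thus depended on the vehicle library.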
